A study of Mus musculus with 2 samples.

Results

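Thyroid hormone handling genes are described here cell type by cell type in the adult mouse neurohypophysis (NH), the posterior lobe of the pituitary. The 6 genes were *Dio2*, *Slco1c1*, *Thra*, *Thrb*, *Crym* and *Ttr*, chosen by name, and all 6 were among the 27998 genes counted. The tissue came from male C57BL/6 mice of 3 months of age, dissected as NH with some of the neighbouring intermediate lobe (IL), dissociated with enzymes and sequenced as single cells in droplets. There were 2 pools of 5 mice each, both untreated and without any transgene, so that the pools were replicates of 1 condition and the comparisons were between cell types. Each pool was 1 library in which its 5 mice cannot be told apart. After the filters of the study 528 cells remained, 273 of pool 1 and 255 of pool 2, in 7 cell types that the authors had named.

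Thyroid hormone reaches tissues mostly as thyroxine (T4), a prohormone, which must be carried across cell membranes and lose an iodine atom to become the active hormone T3. Type 2 deiodinase, the product of *Dio2*, makes this conversion inside the cell. T3 then binds nuclear receptors, encoded by *Thra* and *Thrb*, that activate or repress genes according to whether hormone is bound. *Slco1c1* encodes OATP1C1, a membrane carrier with a preference for T4, *Crym* encodes mu-crystallin, a cytosolic protein that binds T3, and *Ttr* encodes transthyretin, which carries T4 in blood and cerebrospinal fluid. In the hypothalamus the cells known for *Dio2* are tanycytes, glia that line the third ventricle. The glia of the NH are the pituicytes, which wrap the nerve endings that release oxytocin and vasopressin.

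The 3 windows below are shown because *Dio2* is the member on which most of the results turn, *Dio1* encodes the other enzyme that can make T3 from T4 and was counted in a different cell type, and *Thrb* is itself a receptor gene. Each window holds the 250 bases before a transcription start of the RefSeq annotation (build GRCm38), written 5′ to 3′ on the strand of the gene. RefSeq promoters were found for 3 of the 6 members (*Dio2*, *Slco1c1* and *Thrb*). Capitals mark TGACGTCA, the palindromic cAMP response element, or AGGTCA, the 6-base motif to which thyroid hormone receptors and many other nuclear receptors bind, each searched on both strands.
Dio2: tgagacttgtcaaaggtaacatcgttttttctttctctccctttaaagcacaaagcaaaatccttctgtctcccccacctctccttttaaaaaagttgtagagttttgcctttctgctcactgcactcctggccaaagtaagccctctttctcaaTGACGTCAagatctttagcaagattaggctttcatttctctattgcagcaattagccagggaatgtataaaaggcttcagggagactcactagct
Dio1: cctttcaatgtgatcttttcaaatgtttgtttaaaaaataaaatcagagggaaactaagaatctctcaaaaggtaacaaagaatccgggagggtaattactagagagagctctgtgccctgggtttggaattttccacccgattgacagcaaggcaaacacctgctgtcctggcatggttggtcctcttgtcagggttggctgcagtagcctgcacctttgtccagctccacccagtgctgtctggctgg
Thrb: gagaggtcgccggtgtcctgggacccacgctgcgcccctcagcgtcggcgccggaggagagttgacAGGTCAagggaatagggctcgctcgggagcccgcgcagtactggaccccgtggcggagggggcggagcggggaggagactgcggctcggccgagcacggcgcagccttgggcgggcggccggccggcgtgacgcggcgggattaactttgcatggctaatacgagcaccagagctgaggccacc

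The *Dio2* window (chr12:90739039-90739288, minus strand) held 1 copy of TGACGTCA, between 95 and 88 bases before the start. This motif occurred in 508 of 32851 promoter windows of this length, 1.55%. The *Thrb* window (chr14:17660710-17660959, plus strand) belonged to 1 of 2 starts of this gene in the table and held 1 copy of AGGTCA, between 184 and 179 bases before the start. AGGTCA was found in 4607 of the windows. The *Dio1* window (chr4:107307169-107307418, minus strand) held neither motif. A match or its absence describes these letters and says nothing about whether a factor is bound.

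The authors' cell types were recovered from their deposited table of mean values per cluster, in which every kept cell had a weight of at least 0.980 in a single cluster. The 7 types were pituicytes (196 cells), IL cells (148), macrophage/microglia (95), T-cell like cells (42), epithelial-like cells (23), vascular endothelia (13) and vascular and leptomeningeal cells, here called VLMC (11). No barcode was shared between the pools. The kept cells held between 1001 and 9851 UMIs, which are distinct mRNA molecules counted in a droplet, and 699676 UMIs in pool 1 and 726706 in pool 2 altogether. All 10 pituicyte markers (among them *Col25a1*, *Scn7a* and *Rax*) and all 8 IL markers (among them *Pomc*) were highest in the type that bears the name. Many of these markers were chosen by the authors from these same cells, so that this describes the recovered types and is no independent check. The VLMC were a mixed group. Of their own 8 markers 7 were highest there, with *Igf2* at 0, but all 8 oligodendrocyte markers were also highest there, with a summed level of 20375 CPM, which are counts per 1000000 UMIs, in pool 1 and 19605 CPM in pool 2. Endocrine genes of the anterior lobe summed to 35358 CPM in epithelial-like cells of pool 1 against 2758 CPM in pool 2, and to 188 CPM in IL cells of pool 1 against 9425 CPM in pool 2.

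*Dio2* (chr12:90724552-90738438, minus strand) was mainly a pituicyte gene in these cells. Of its 38 UMIs, 32 (84.2%) were in pituicytes, 16 in each pool, and 34 of the 36 cells that contained it held a single UMI. The gene overlaps *Gm26512* on the opposite strand, and whether counting used strand is not given in the sources used here. Its level in pituicytes was 67.9 CPM in pool 1 and 63.1 CPM in pool 2, with a mean of 65.5 ± 3.38 CPM (SD, n = 2 pools). In IL cells it was 3.56 and 0 CPM, from 1 UMI in 530811. No *Dio2* UMI was found in macrophage/microglia or T-cell like cells of either pool, which allows up to 15.3 CPM and 35.7 CPM respectively. Both pituicyte pools lay above both pools of IL cells and of macrophage/microglia, with no overlap. In T-cell like cells the 0 counts allow up to 54.6 CPM in pool 1, which lay below both pituicyte levels. In their pool 2 they allow up to 103 CPM, so that this pool could not be told from pituicytes at this depth.

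Between the 3 small cell types and pituicytes the depth did not allow an order. *Dio2* reached 118 and 66.2 CPM in VLMC, which rested on 1 UMI in each pool. In vascular endothelia the levels were 88.1 and 0 CPM, from 1 UMI, and in epithelial-like cells 0 and 33.8 CPM, from 2 UMIs. The exact interval of the level in VLMC, which covers counting error only, ran from 10.3 to 306 CPM at the 95% level, and included that of pituicytes (44.7 to 92.4 CPM). These 11 VLMC are also the cells with oligodendrocyte transcripts, whose part in the 2 *Dio2* UMIs was not tested.

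**Figure D1:**
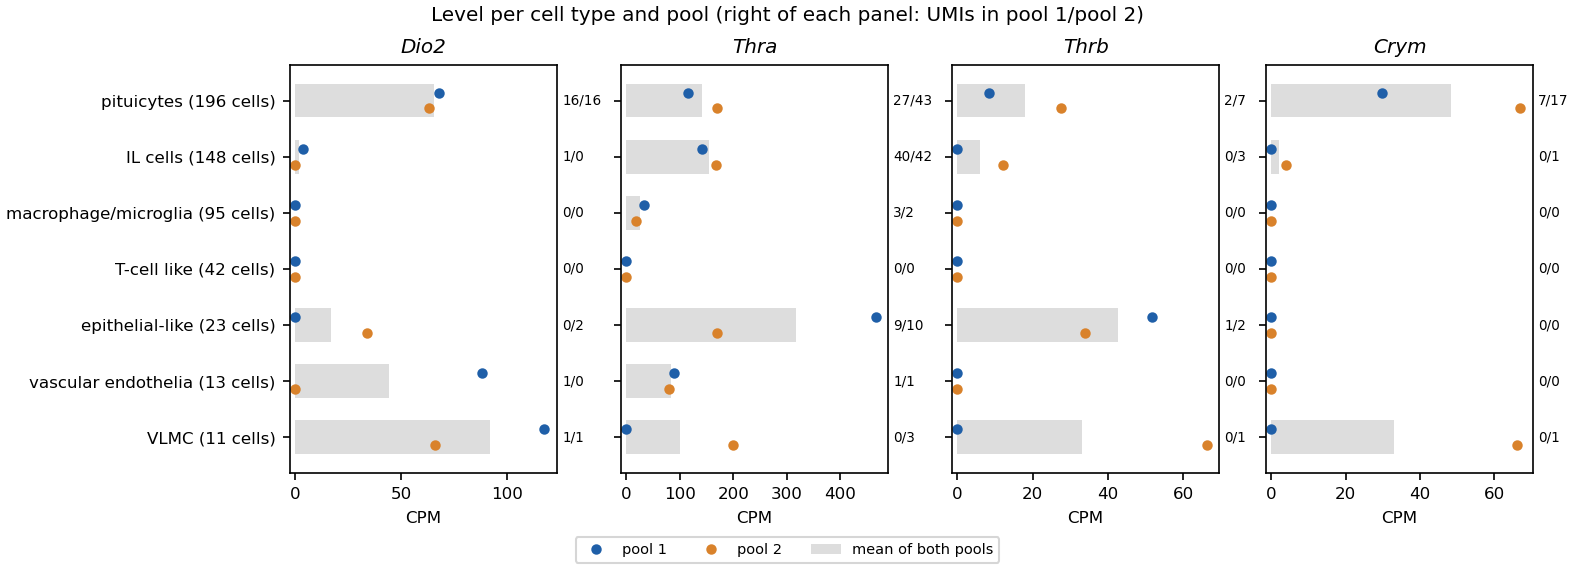
Level of 4 members per cell type in CPM (horizontal axis, linear), with 1 point per pool, a bar for the mean of both pools and the UMIs behind the points in pool 1 and pool 2 at the right of each panel. *Dio2* and *Crym* have most of their UMIs in pituicytes and are at or near 0 in IL and immune cells. On single UMIs, VLMC reach 118 and 66.2 CPM of *Dio2* and 0 and 66.2 CPM of *Crym*, and vascular endothelia 88.1 and 0 CPM of *Dio2*. *Thra* is spread over pituicytes, IL cells and epithelial-like cells.

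The cells of a type were summed within each pool, and edgeR's quasi-likelihood test set every type against the average of the remaining 6. Calls required an adjusted p (Benjamini-Hochberg, over the 4510 genes tested) no higher than 0.05 together with a natural log fold no smaller than 1. Where some of the remaining types have no counts, the fitted difference depends on how 0 is treated and is no measure of size, so that count ratios are given as well. Of the members, only *Dio2* and *Thra* passed the filter on low counts and were tested. This filter works on CPM, so that a single UMI can pass it in a small sum. *Dio2* passed through 1 UMI each in pool 1 of VLMC (118 CPM) and of vascular endothelia (88.1 CPM), not through its pituicyte levels. *Dio2* and *Thra* were both called higher in pituicytes, as were 16.8% of all genes tested, whose median difference in this contrast was 0.59 on the log2 scale. *Dio2* was higher by 3.23 ± 0.74 on the log2 scale (adjusted p = 0.000156). For edgeR differences, here and below, the value after ± is the difference divided by the square root of its F statistic. This is an approximate SE that the fit itself does not give, and it is unreliable where counts are near 0. In the direct contrast with IL cells the log2 difference of *Dio2* was 4.35 ± 0.95 (adjusted p = 5.08e-05), in a comparison in which 10% of genes were called higher in pituicytes. Taken as a plain ratio of counts, *Dio2* was 34.7-fold higher in pituicytes than in IL cells, with an exact 95% interval from 5.80 to 1414 that reflects the single UMI in IL cells. Against macrophage/microglia and T-cell like cells together it was 6.12-fold higher with their 0 counts set to 3 over the group, a value that leaves out the counting error in pituicytes. DESeq2 did not call *Dio2* in pituicytes (adjusted p = 0.193) and gave no adjusted p against IL cells. With the mitochondrial limit lowered to 10% *Dio2* did not pass the filter and was not tested.

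The order of the *Dio2* levels was VLMC, pituicytes, vascular endothelia, epithelial-like cells and IL cells, followed by both immune types at 0. None of the 5 neighbouring pairs that could be compared was called (edgeR, lowest unadjusted p = 0.106, lowest adjusted p = 0.405). Over all 21 pairs of types, 13% of the tests over all genes were called. *Dio2* was called in 3 pairs, those of pituicytes with IL cells, with macrophage/microglia and with T-cell like cells.

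*Crym* (chr7:120186380-120202111, minus strand) had 24 of its 26 UMIs (92.3%) in pituicytes, a share that also depends on the depth of each type. Its level there was 29.7 CPM in pool 1, from 7 UMIs, and 67.1 CPM in pool 2, from 17 UMIs, with a mean of 48.4 ± 26.4 CPM (SD, n = 2). A single UMI each was found in IL cells and in VLMC, both in pool 2, which gave 4.01 and 66.2 CPM. The other 4 types were at 0. In single pools this allows up to 33.8 CPM in macrophage/microglia, 103 CPM in T-cell like cells, 155 CPM in epithelial-like cells and 264 CPM in vascular endothelia. At this depth none of these 4 types could be told from pituicytes of pool 1 in both of its pools. Both pituicyte pools exceeded both IL pools, but the pools themselves differed more for *Crym* than for *Dio2*. The gene did not pass the filter on low counts and was not tested. With the filter on low counts removed it was called higher in pituicytes (log2 difference 4.53 ± 0.88, adjusted p = 1.1e-05) and against IL cells (4.02 ± 0.92, adjusted p = 0.00034). The count ratio of pituicytes over IL cells was 26.0, with an interval from 4.25 to 1071.

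*Thra* (chr11:98740638-98769006, plus strand) had the most UMIs of the 6 genes, 181 in 125 cells, and was not confined to pituicytes. Its level was 115 and 170 CPM in pituicytes (142 ± 38.9 CPM) and 142 and 168 CPM in IL cells (155 ± 18.5 CPM), so that the ranges of both types overlapped. It reached 466 and 169 CPM in epithelial-like cells, from 9 and 10 UMIs. Vascular endothelia had 88.1 and 80.1 CPM from 1 UMI per pool, and VLMC had 0 and 199 CPM from 3 UMIs. In macrophage/microglia the level was 33.8 and 18.5 CPM, and in the 42 T-cell like cells no UMI was found, which allows up to 35.7 CPM. Both immune types thus lay below both pools of pituicytes, of IL cells and of epithelial-like cells.

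Against the mean of the other types *Thra* was called higher in pituicytes (log2 difference 1.82 ± 0.52, adjusted p = 0.00337), in IL cells (2.09 ± 0.49, adjusted p = 0.000253) and in epithelial-like cells (2.41 ± 0.64, adjusted p = 0.00371). It was called lower in T-cell like cells (adjusted p = 0.0103, without a fold as both pools were at 0), where 2.75% of genes were. The shares of all genes called higher in IL cells and epithelial-like cells were 16.7% and 7.96%. No difference was found between pituicytes and IL cells (−0.23 ± 0.36, adjusted p = 0.747), and the ratio of their counts was 0.926 with an interval from 0.664 to 1.29. *Thra* was called in 6 of the 21 pairs, each between pituicytes, IL cells or epithelial-like cells on the one side and macrophage/microglia or T-cell like cells on the other. None of its neighbours in the order of levels, from epithelial-like cells through IL cells, pituicytes, VLMC, vascular endothelia and macrophage/microglia to T-cell like cells, was called (edgeR, lowest unadjusted p = 0.0692, adjusted p between 0.281 and 0.938).

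The higher calls of *Thra* depended on weighting every other type equally. When the counts of the other 6 types were summed, which gives most weight to the types with most cells, the difference of pituicytes was 0.17 on the log2 scale (adjusted p = 0.746), and neither IL cells (adjusted p = 0.218) nor epithelial-like cells (adjusted p = 0.478) were called. The call in pituicytes was also lost without their pool 2 (adjusted p = 0.0671), with DESeq2 (adjusted p = 0.0798) and at the mitochondrial limit of 10% (adjusted p = 0.247), that in epithelial-like cells without pool 1 (adjusted p = 0.138), and that in T-cell like cells without pool 1 (adjusted p = 0.427) or pool 2 (adjusted p = 0.117). At the mitochondrial limit of 10% the call in epithelial-like cells was lost as well (edgeR, adjusted p = 0.0907). Epithelial-like cells of pool 1 were 7 cells with 19317 UMIs, and they were the cells with the high anterior lobe transcripts given above, whose part in their *Thra* level was not tested.

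The *Thra* gene gives rise to the receptor TRα1 and to the variant TRα2, which does not bind T3, and counts per gene do not separate them. Its 3′ end overlaps *Nr1d1* on the opposite strand over 1075 bases. *Nr1d1*, a clock gene, had 44 UMIs in the kept cells, 25 of them in pituicytes and 16 in IL cells.

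*Thrb* (chr14:17660261-18038090, plus strand), the second receptor gene, was near the limit of detection. It had 16 UMIs in 15 cells, 3 in pool 1 and 13 in pool 2. The levels were 8.49 and 27.6 CPM in pituicytes (18.1 ± 13.5 CPM, 9 UMIs), 0 and 12.02 CPM in IL cells (3 UMIs), 51.8 and 33.8 CPM in epithelial-like cells (3 UMIs) and 0 and 66.2 CPM in VLMC (1 UMI). Both epithelial-like pools lay above both pools of pituicytes and IL cells, on 1 and 2 UMIs, while pituicytes and IL cells overlapped. Macrophage/microglia, T-cell like cells and vascular endothelia were at 0. It was not tested in the filtered table, and without the filter it was not called in pituicytes (adjusted p = 0.148). The ratio of pituicytes over IL cells was 3.26 with an interval from 0.812 to 18.7, so that a difference was not detectable at this depth.

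The 2 remaining members, a T4 carrier and a T4 binding protein of the barriers, were at or near 0. *Slco1c1* (chr6:141524368-141570177, plus strand) had no UMI in any barcode of either pool, 4442416 UMIs in pool 1 and 1474311 in pool 2 together. Over the kept cells this allows a level of up to 2.10 CPM and a share of cells with a UMI of up to 0.568%. In the brain this carrier is known from endothelium that forms the blood-brain barrier. The NH vascular endothelia here numbered 13 cells with 11346 UMIs in pool 1 and 12488 in pool 2, in which 0 counts allow up to 126 CPM. *Ttr* had 1 UMI among the kept cells, in a pituicyte of pool 1 (4.24 CPM), and none in pool 2.

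The share of pituicytes that contained *Dio2* was 15.3% (30 of 196 cells, exact 95% interval 10.6 to 21.1%), against 0.676% of IL cells (1 of 148, 0.0171 to 3.71%) and 0 of 95 macrophage/microglia, which allows up to 3.16%. It was not the highest share, as 18.2% of VLMC held a UMI (2 of 11, 2.28 to 51.8%). Epithelial-like cells had 8.70% (2 of 23) and vascular endothelia 7.69% (1 of 13). IL cells were the deeper sequenced, with a median of 3249 UMIs per cell against 2056 in pituicytes and 1739 in macrophage/microglia. After every cell was thinned to 1000 UMIs, 6.63% of pituicytes (13 of 196) and 0 of 148 IL cells kept a *Dio2* UMI. In VLMC, vascular endothelia and epithelial-like cells 1 cell each kept one, which gave 9.09, 7.69 and 4.35%. *Crym* was found in 9.18% of pituicytes (18 cells) and in 4.59% after thinning. *Thra* was found in 26.5% of pituicytes (52 cells), 36.5% of IL cells (54 cells) and 5.26% of macrophage/microglia (5 cells). After thinning, its shares in pituicytes and IL cells were 13.3 and 12.2%, and their exact intervals, 8.85 to 18.8% and 7.37 to 18.5%, overlapped.

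**Figure D2:**
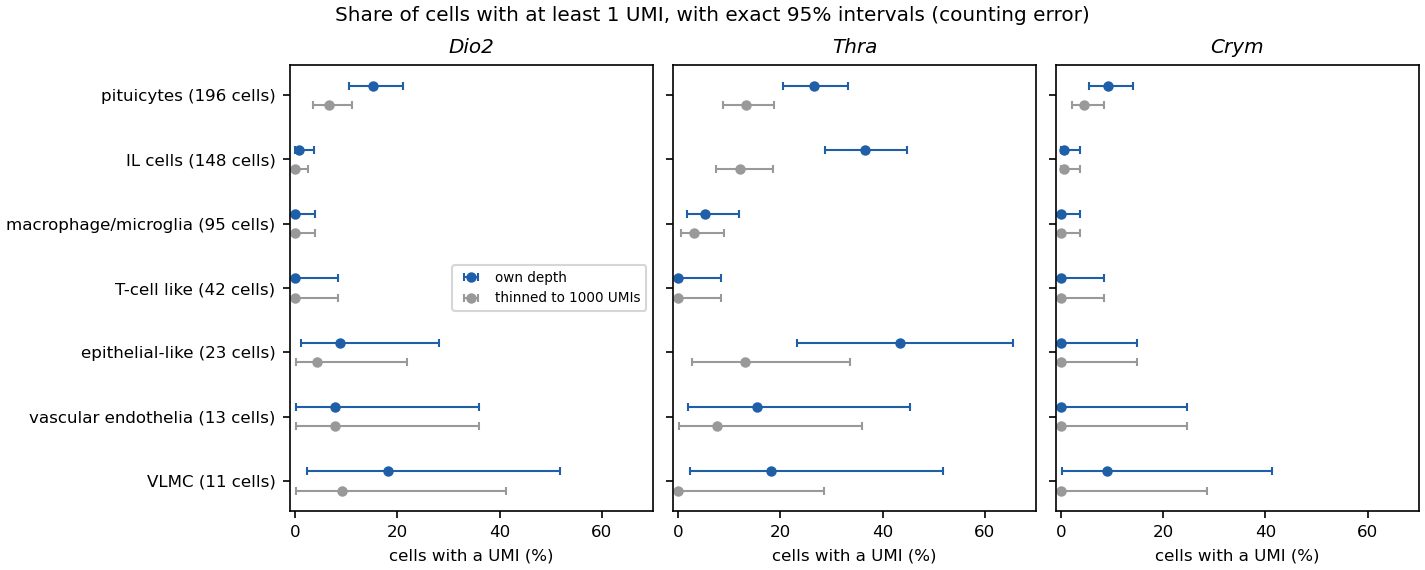
Share of cells with at least 1 UMI of *Dio2*, *Thra* or *Crym* per cell type in percent, at the depth of each cell (blue) and after thinning every cell to 1000 UMIs (grey), with exact 95% intervals that cover counting error only. The *Dio2* share of pituicytes, 15.3%, lies above that of IL cells and macrophage/microglia at either depth, but below that of VLMC, 18.2% (2 of 11 cells). After thinning, VLMC (9.09%) and vascular endothelia (7.69%) lie above pituicytes, on 1 cell each. The thinned interval of pituicytes, 3.58 to 11.1%, overlaps that of macrophage/microglia, 0 to 3.81%. The *Thra* shares of pituicytes and IL cells come together after thinning, at 13.3 and 12.2%.

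Free RNA in the droplets was estimated at 6.10% of the UMIs of a cell in pool 1 and 5.19% in pool 2, from *Pomc* in immune cells. The profile of free RNA was that of barcodes with 1 to 50 UMIs of pool 1 for both pools, since pool 2 held no such barcodes. From it a cell would receive 1.87 and 1.59 CPM of *Dio2* and 3.45 and 2.94 CPM of *Thra*, well below the levels in pituicytes. The *Dio2* level of 3.56 CPM in IL cells of pool 1, a single UMI, cannot be told from this background. With the free RNA subtracted and the remainder set to the remaining UMIs, the mean level of *Dio2* in pituicytes was 67.6 CPM.

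The authors divided pituicytes into the clusters a (87 cells), b (55) and c (54), and no member was called between them. *Dio2* stood at 57.9 and 52.4 CPM in cluster a, 102 and 78.6 CPM in b and 55.8 and 79.6 CPM in c. The ranges of a and b did not overlap, yet the largest contrast, that of cluster a with the other 2, was −0.58 ± 0.71 on the log2 scale (edgeR, unadjusted p = 0.418, adjusted p = 0.9998). DESeq2 called none either. *Thra* was 101 and 164 CPM in a, 84.9 and 236 CPM in b and 139 and 143 CPM in c. In these contrasts 0.0195% (a), 0.253% (b) and 0.195% (c) of the 5136 genes tested were called. *Crym* was not tested. Its UMIs in pool 1 were all 7 in cluster c, with 0 in clusters a (34 cells) and b (36 cells), whereas in pool 2 the 3 clusters held 11, 3 and 3. The median mitochondrial share of the clusters was 9.90, 17.0 and 20.7%, and its part in these values was not tested.

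**Figure D3:**
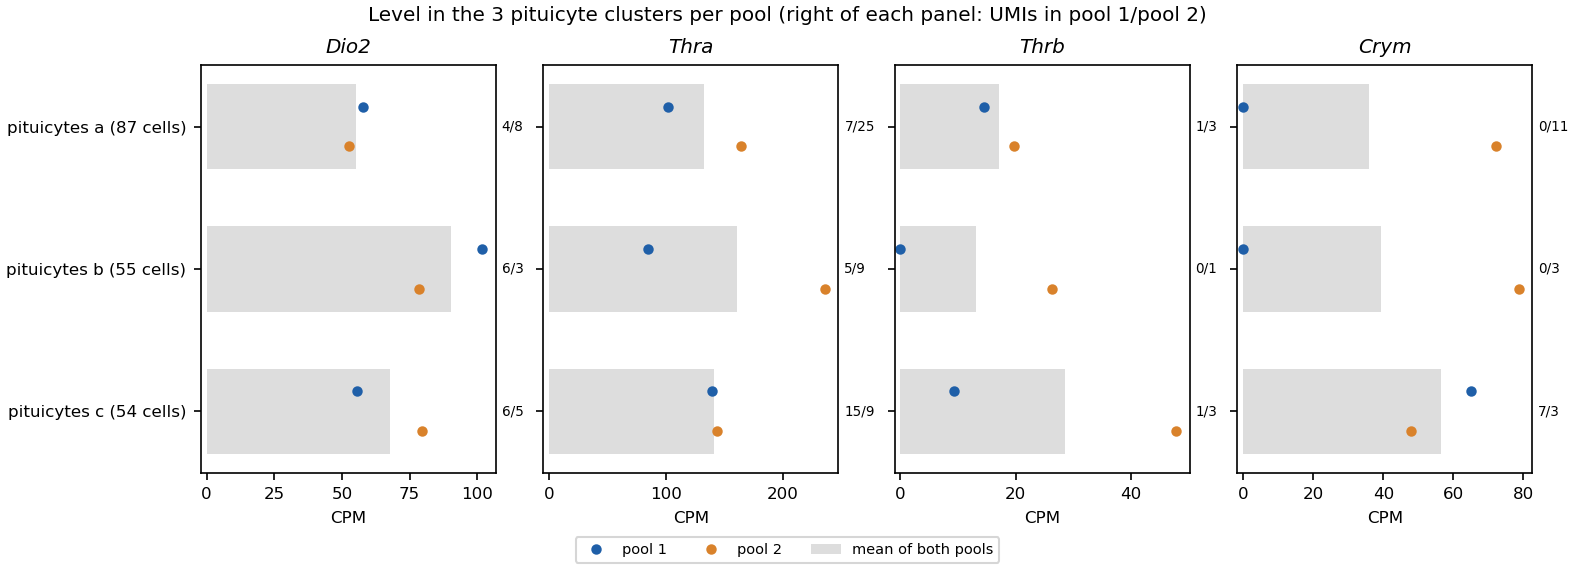
Level of 4 members in the pituicyte clusters a, b and c in CPM (horizontal axis, linear), with 1 point per pool, a bar for the mean and the UMIs of pool 1 and pool 2 at the right. *Dio2* is at 52.4 to 57.9 CPM in cluster a and 78.6 to 102 CPM in b, a difference that was not called. *Crym* of pool 1 is found in cluster c alone, with 7 UMIs in 5 cells (65.0 CPM). The 0 counts in a and b of pool 1 allow up to 43.4 and 50.9 CPM. In pool 2 *Crym* is at 72.1 CPM in a, 78.6 CPM in b and 47.8 CPM in c.

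Within pituicytes, 115 of 196 cells (58.7%) held no UMI of *Dio2*, *Thra*, *Thrb* or *Crym*. Of these genes, with *Ttr* left out of the count, 57 cells held 1, 21 held 2 and 3 held 3. The median depth rose along this series, from 1871 to 2127, 2874 and 7442 UMIs. *Dio2* and *Thra* occurred together in 14 cells, where 7.96 would be expected from their separate shares. *Dio2* and *Crym* occurred together in 3 cells, where 2.76 would be expected. As the cells with more members were also the deeper ones, the part of depth in the joint counts was not tested.

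The pathway around these genes was taken as a list of 70 further genes in 7 groups, of which 59 had a UMI in the kept cells and 25 could be tested. Of these 25, 6 were called higher in pituicytes (24%, beside 16.8% of all genes tested) and 4 in IL cells (16%, beside 16.7%). None was called lower by edgeR, beside 0.953% of all genes in pituicytes and 2.08% in IL cells, with 1 and 0 at an unadjusted p below 0.05. DESeq2 called 1 lower in pituicytes (*Mbp*, a myelin gene) and 2 in IL cells (*Mbp* and *Slco2b1*), genes named after their values were seen. The median natural log difference of the 25 genes in pituicytes was 0.380, beside 0.412 for all genes tested. The list is described here by its single genes.

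The OATP genes, chosen here after their values were seen because *Slco1c1* was absent, divided between cell types. *Slco1a5* had 13 of its 14 UMIs in pituicytes, and *Slco2b1* had 40 of its 44 in macrophage/microglia, at 226 and 185 CPM.

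While most *Dio2* UMIs were in pituicytes, all 13 UMIs of *Dio1* were in IL cells. They gave 14 CPM in pool 1 and 36 CPM in pool 2. With the 0 counts of pituicytes set to the same limit as for *Dio2* in immune cells, *Dio1* was 3.99-fold higher in IL cells. This value leaves out the counting error in IL cells. *Dio3*, whose product inactivates T4 and T3, had 1 UMI in all cells, in VLMC, which also held 2 of *Dio2*. These 2 genes were too low for the test and were singled out after their values were seen. Of the genes that act on the stability of the type 2 enzyme, *March6*, a ubiquitin ligase of the endoplasmic reticulum, was 93.4 and 86.8 CPM in pituicytes and 49.8 and 72.1 CPM in IL cells. It was called higher in pituicytes (log2 difference 2.11 ± 0.61, adjusted p = 0.00391), though not when the other types were summed (adjusted p = 0.0840) or with DESeq2 (adjusted p = 0.0802). *Ube2j1*, a ubiquitin-conjugating enzyme of the same membrane, was 4.24 and 23.7 CPM in pituicytes and 64.0 and 72.1 CPM in IL cells, without overlap. It was called higher in IL cells (2.14 ± 0.70, adjusted p = 0.0129) and lower in pituicytes than in IL cells (−2.27 ± 0.65, adjusted p = 0.00369), among 6.72% of genes. The call in IL cells was lost without either IL pool and under 4 other alternatives, and that between pituicytes and IL cells without pool 1 of pituicytes or pool 2 of IL cells and with DESeq2.

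Of 15 genes known to respond to thyroid hormone 5 were tested, and 2 of the 5 (40%) were called higher in pituicytes and 2 in IL cells, beside 16.8% and 16.7% of all genes tested. *Atp1b2*, a subunit of the sodium pump that is typical of glia, was 136 and 189 CPM in pituicytes and 24.9 and 36.1 CPM in IL cells (log2 difference of pituicytes from the other types 3.23 ± 0.51, adjusted p = 5.26e-09, and from IL cells 2.28 ± 0.46, adjusted p = 9.12e-06). *Thrsp*, a gene of lipid synthesis, was 97.6 and 122 CPM in pituicytes and 64.0 and 100.2 CPM in IL cells and was called in both (2.79 ± 0.68, adjusted p = 0.000394, and 2.41 ± 0.73, adjusted p = 0.00681). Vascular endothelia reached 88.1 and 400.4 CPM of *Thrsp*, and no call of it remained when the other types were summed (adjusted p = 0.118 and 0.930). That in IL cells was also lost without their pool 2 (adjusted p = 0.0995), with DESeq2 and with library size alone. *Cirbp*, a cold-inducible RNA-binding protein, was 119 and 107 CPM in pituicytes and 228 and 281 CPM in IL cells, where it was called (1.56 ± 0.34, adjusted p = 5.76e-05). In IL cells its adjusted p stayed below 0.01 under 5 alternatives but its fold fell under the limit. It was also called in epithelial-like cells, at 259 and 355 CPM (edgeR, adjusted p = 0.0230), but not in VLMC, at 353 and 265 CPM. *Hr*, a corepressor induced by T3, had 13 of its 14 UMIs in IL cells and none in pituicytes. It is named here after its values were seen.

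**Figure D4:**
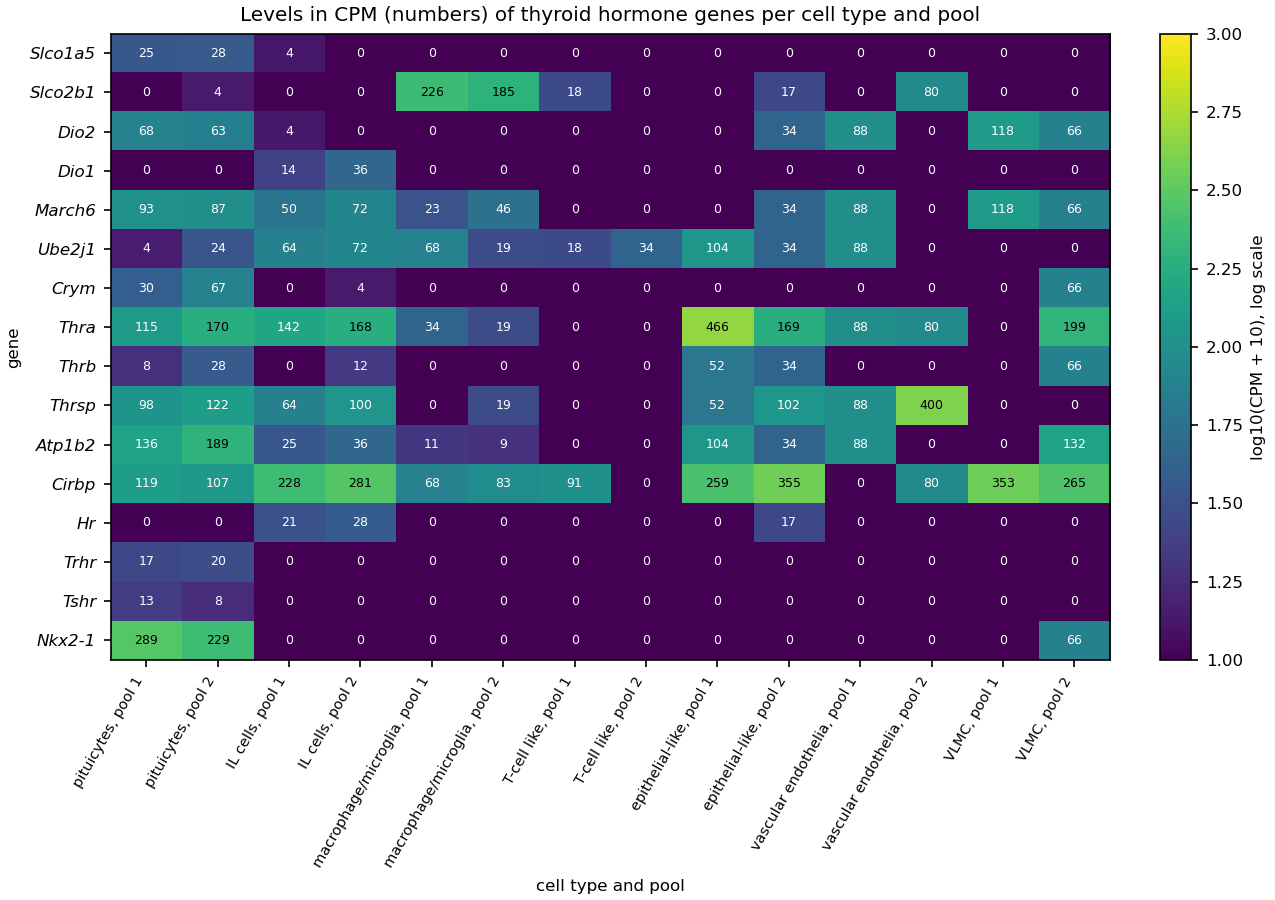
Level in CPM (numbers) of 16 genes of thyroid hormone transport, conversion, binding, reception and response in each cell type and pool, coloured by log10(CPM + 10). The list was chosen after the values were seen. *Dio2*, *Crym*, *Trhr*, *Tshr* and *Nkx2-1* have most of their UMIs in pituicytes, the 2 left columns, *Dio1* and *Hr* in IL cells and *Slco2b1* in macrophage/microglia.

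The last groups hold hormones, receptors and factors of the thyroid axis and gland. *Nkx2-1*, a transcription factor of the thyroid, lung and ventral forebrain, had 126 of its 127 UMIs in pituicytes, at 289 and 229 CPM. It was called there by edgeR (adjusted p = 2.19e-27, without a fold as most other types were at 0), though not by DESeq2 (adjusted p = 0.431). The gene passed the filter on low counts through its pituicyte sums alone, so that the call is no separate support for its high level there. Against IL cells, with their 0 counts set to the same limit as for *Dio2* in immune cells, *Nkx2-1* was 45.6-fold higher. This value leaves out the counting error in pituicytes. *Trhr*, the receptor of thyrotropin-releasing hormone, had all of its 9 UMIs in pituicytes, and *Tshr*, the receptor of thyrotropin, all of its 5. Both are low counts, named after their values were seen, and neither could be tested. *Tg* and *Iyd*, genes of hormone synthesis in the thyroid gland, and *Pax8* had no UMI in the kept cells.

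The genes whose levels over the 14 sums were most like those of a member were found among the 4508 other genes tested, by Pearson's r of log2(CPM + 50). The 14 sums come from 2 libraries and differ in depth, and the values are descriptions. For *Dio2* they were *Mettl5* (0.879), *Tmed1* (0.877) and *Csrp1* (0.872). *Mettl5* had the same levels as *Dio2* in both pools of the 3 smallest types, where *Dio2* rests on 1 or 2 UMIs per type. In IL cells the 2 genes differed, at 24.9 and 28.1 CPM of *Mettl5* against 3.56 and 0 CPM of *Dio2*. A high r can thus reflect coinciding single UMIs in small sums. For *Thra* they were *Tsen34* (0.947), *Tceal8* (0.899) and *Cnn3* (0.897), for *Thrb* *Cntn1* (0.957), *Ccdc80* (0.941) and *Ext1* (0.921), and for *Crym* *Slc1a2* (0.992), *Ptprz1* (0.950) and *Mrc2* (0.948). *Slc1a2*, a glutamate transporter of astroglia, was 72.1 and 126 CPM in pituicytes, 7.11 and 4.01 CPM in IL cells and 0 and 132 CPM in VLMC, and at 0 elsewhere, which is also where *Crym* had its UMIs. In VLMC this rested on 2 UMIs of *Slc1a2* and 1 of *Crym*.

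None of the 6 members was among the 900 most variable genes. The cells were clustered again on 900 variable genes. Members and pathway genes were left out of these beforehand, so that the clusters could not be built on them. In this clustering 492 of 528 cells kept the name of their type, although vascular endothelia and VLMC had no cluster of their own. *Dio2* was called in the pituicytes of this clustering too (edgeR, adjusted p = 2.32e-07). This call is no independent support, since 192 of the 196 pituicytes were the same cells and the clusters took the authors' names. The comparison also lacked vascular endothelia and VLMC, whose mean *Dio2* levels were 44.1 and 92.0 CPM. The 900 genes were picked here and need not be those behind the authors' types, on which the calls above rest.

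**Figure D5:**
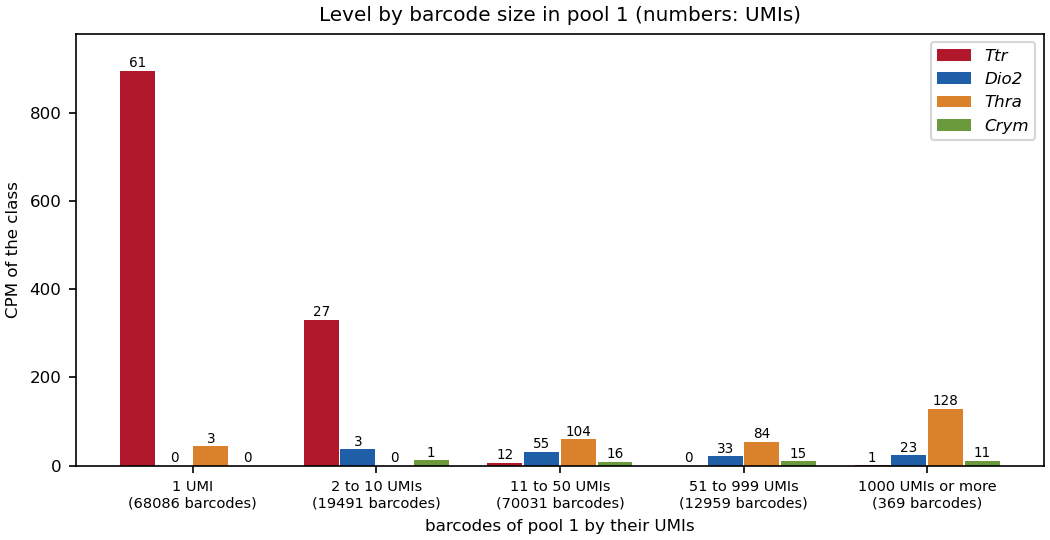
Level in CPM (vertical axis, linear) of 4 members in barcodes of pool 1 grouped by their total UMIs, with the UMIs of each gene above its bar. *Ttr* has 61 UMIs in barcodes with a single UMI and 0 in those with more than 50 but under 1000, whereas *Thra* is highest in barcodes with 1000 UMIs or more, with 128 UMIs.

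In pool 1 the level of *Ttr* also differed between barcodes of different size. *Dio2* had 31.6 CPM in barcodes with 11 to 50 UMIs, 21.1 CPM in those with more than 50 but under 1000 and 13.8 CPM in the 96 barcodes with 1000 or more that were not kept as cells (4 UMIs). In the 273 kept cells of pool 1 it had 27.2 CPM, so that it did not fall steadily with barcode size. *Ttr* had 896 CPM in the 68086 barcodes with a single UMI, 331 CPM in those with 2 to 10 and 6.89 CPM in those with 11 to 50. In the 12959 barcodes with more than 50 but under 1000 UMIs it had 0 of 1561513 UMIs, which allows up to 1.92 CPM.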

How the data were processed

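Droplet libraries of 2 pools of NH tissue were analysed. The deposited values were UMI counts per gene and barcode, made by the authors with Cell Ranger on mm10 (submitters' processing notes: Cell Ranger 1.2.1, 2.0.0 and 2.1, STAR 2.5.1b, Seurat 2.3). All barcodes of the kit are listed for pool 1 and 1500 barcodes for pool 2. The authors also deposited mean values per cluster, a score scaled to 10000 UMIs per cell over 15025 genes. Members and lists were chosen with earlier results of these data known.

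Cells were kept above 1000 and below 10000 UMIs, above 400 and below 5000 genes and below 25% mitochondrial UMIs. Clusters were assigned by non-negative weights and merged into 7 types. In the deposited table IL cells are named neural progenitor a and b, and VLMC are named OPC/LVMC. The rebuilt means differed from the deposited ones by over 0.05 in 349 genes. Scrublet (scanpy 1.11.5) marked 3 cells as doublets, which were kept.

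Counts were summed per pool and type (14 sums, 22 for clusters) and tested with edgeR 4.0.16 (R 4.3.3), TMM, minimum count 5 and minimum total 15. The fit was also run on simulated counts in which all types shared a profile apart from genes raised in pituicytes. That setting lacks the differences between types in these data, so that it says nothing on contrasts against types at 0. Sums of the same pool come from the same mice, which pairs them. The correlation of pool differences over the 21 pairs of types lay between −0.0254 and 0.127 (median 0.0210). Alternatives were library size alone, DESeq2 size factors, DESeq2 1.42.0, no filter, pool as a block, leaving out sums, a mitochondrial limit of 10%, no doublets, clustering with Seurat 5.3.0 and, added after the data were seen, the other types summed and a second free RNA profile. CPM are counts per 1000000 UMIs. The pools were made from separate mice. Genes were named by the rule that covers all members, pathway genes called in pituicytes or IL cells and the 3 genes most like each member with at least 15 UMIs. Some genes of the lists that enter the counts are not reported here by name. Intervals, at the 95% level, and limits of 3 counts cover counting error only. Gene positions are from GENCODE vM21 (GRCm38).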

Additional observations from a re-analysis of the deposited data

Results flagged for a closer look

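Member UMIs were also found in barcodes that the comparisons did not use. In barcodes of pool 1 with 1 to 50 UMIs there were 58 UMIs of *Dio2*, 107 of *Thra* and 17 of *Crym*, above the 3 that a count of 0 allows. In barcodes with 1000 UMIs or more that failed a filter, over both pools, there were 10 UMIs of *Dio2*, 84 of *Thra*, 9 of *Thrb* and 8 of *Crym*.

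*Ttr* contributed 100 UMIs to these small barcodes and 1 UMI to all larger ones of pool 1, so that 99.0% of its UMIs there were in the small ones, beside 42.6% of the UMIs of all genes. Ranked by this share were the 8790 genes with at least 10 UMIs in the small barcodes, so that genes entered through the class in question. Of these, 9 had all of their UMIs there. They were *Car1* (43 UMIs), *Fabp1* (23), *Ermap* (15), *Hemgn* (14), *Mup3* (14), *Mup20* (13), *Cldn13* (11), *Alb* (10) and *Ctse* (10). *Xist*, a transcript of female cells, had 34 of 38 UMIs there although the mice were male. In the barcodes with a single UMI the list of hepatocyte genes summed to 323 CPM, against 3.20 CPM in barcodes with more than 50 but under 1000 UMIs. The list of choroid plexus genes did not follow barcode size in this way. It summed to 73.4 CPM (5 UMIs) and 33.3 CPM in these 2 classes and to 85.0 CPM in barcodes with 1000 UMIs or more. The source of the UMIs of *Ttr*, of the 9 genes and of the hepatocyte list in small barcodes was not tested. Pool 2 held no barcode with fewer than 51 UMIs, so that the same count could not be made there.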

How the results depend on the processing

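Of 219 values of single genes under alternatives, 182 kept their direction and call, 37 kept their direction but lost the call and none changed direction. Of the 37, 10 were lost with DESeq2, 10 with the other types summed, 9 when a sum was left out and 2 at a mitochondrial limit of 10%. The number of members called higher in pituicytes, 2 as reported, was 0 with DESeq2, 0 at the 10% limit and 1 to 2 when a pituicyte pool was left out. The number of pathway genes, 6 as reported, was 11 without the filter on low counts, 3 with DESeq2 and 2 at the 10% limit. The number of members called between pituicytes and IL cells, 1 as reported, was 2 without the filter and 0 with DESeq2 and at the 10% limit. Over all genes, 4510 were tested as reported and with DESeq2, 16258 without the filter and 2361 at the 10% limit, where fewer cells enter as well. The shares of all genes called under these alternatives are not given here, so that the 3 numbers cannot be set against them. The cause of the changes was not tested. With pool as a replicate block the 3 numbers were 2, 6 and 1, and no call of a named gene changed. No member was called between pituicyte clusters and no neighbours in the order of levels were called under any alternative run for them. With the other types summed 2 members were again called, but these were *Dio2* and *Crym*.

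The mean of single cells gave 72.9 CPM of *Dio2* in pituicytes. Thinning moved the share of pituicytes with a UMI to 6.63% for *Dio2*, 13.3% for *Thra* and 4.59% for *Crym*. Leaving out a pool gave shares from 20.4 to 34.1% for *Thra* and from 4.63 to 14.8% for *Crym*. Levels of *Thrb* and *Crym*, and of every member in the 3 smallest types, rest on few UMIs, so that only large differences could be detected.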
